A study of Mus musculus with 8 samples.

Results

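The miRNAs described here are the 36 mouse miRNAs on the array whose names belong to miR-297, miR-466, miR-467 or miR-669, out of 611 mouse miRNAs on the same array. They were chosen by name and not by level, and comprise 3 of miR-297, 12 of miR-466, 10 of miR-467 and 11 of miR-669. Of these, 15 are named as the 5p arm and 12 as the 3p arm of their hairpin, and 9 carry no arm in the name. The cells were C3H10T1/2, an established line of mouse embryonic mesenchymal cells with fibroblast shape that is used as a model of hedgehog response. In the WT group they were cultured for 48 h with 750 nM of wild type IhhN, the signalling fragment of human Indian hedgehog made in bacteria, and in the MT group for 48 h with 750 nM of E95K mutant IhhN, a change known from the finger malformation brachydactyly type A1. The control group had no protein induction and the same 48 h of culture, although one label of these samples repeats 750 nM. All 3 groups were the same cell line at 1 time, with 2 RNA samples each, and no source used here says whether the 2 samples came from separate cultures, so a p-value measures the spread between these samples, which may be technical.

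A miRNA is cut from a hairpin precursor, and either arm of the hairpin can be kept as the mature strand, which then pairs with mRNAs mainly through its seed, the bases just after its first base. The miR-297, miR-466, miR-467 and miR-669 families are known from rodents, where repeated duplication of simple-sequence hairpins filled an intron of Sfmbt2, an imprinted gene of the Polycomb-related MBT family. Sfmbt2 and its miRNAs are best known from the placenta and from embryonic stem cells.

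The name Sfmbt2 held for most of these miRNAs but not for all. In the RefSeq annotation of GRCm38.p6, 72 miRNA hairpin genes lay within the span of Sfmbt2 on chromosome 2, and all 72 belonged to the 4 families. Of the 36 miRNAs measured, 26 had hairpin genes only there, and 3 (miR-466f-3p, miR-466f-5p and miR-297a-3p) had a gene there and another elsewhere. A further 6 had genes only elsewhere: miR-466k and miR-669n on chromosome 3, miR-467g on chromosome 5, miR-466j on chromosome 10, miR-467f on chromosome 11 and miR-466i-3p on chromosome 13. The remaining 1, miR-466a-5p, was not matched by name. Sequences were at hand for the 6 miRNAs outside Sfmbt2 and for none of the other 30. They are shown because they include 2 of the 4 miRNAs that were detected (miR-669n and miR-467f) and the repeats that give these families their character. The sequences are mature strands from RefSeq (GRCm38.p6), 5′ to 3′, with the seed (bases 2 to 8) in capitals.
miR-669n, chr3:115979905-115979924, plus strand: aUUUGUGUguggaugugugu
miR-467f, chr11:69635419-69635439, minus strand: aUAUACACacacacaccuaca
miR-466i-3p, chr13:17747552-17747573, plus strand: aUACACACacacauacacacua
miR-466j, chr10:60960802-60960824, plus strand: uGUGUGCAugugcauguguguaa
miR-467g, chr5:34732872-34732892, minus strand: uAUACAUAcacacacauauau
miR-466k, chr3:85467396-85467418, plus strand: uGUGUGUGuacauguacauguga

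The 6 strands had 6 different seeds, and none of these seeds was found in another mature miRNA of the sequence table. That table lacks the other 30 miRNAs, so a seed shared with them would not have been found. They fell into those built on CA repeats (miR-467f, miR-466i-3p and miR-467g) and those built on GU repeats (miR-669n, miR-466j and miR-466k). Thus miR-467f and miR-466i-3p shared a run of 13 bases, and miR-467g shared 11 bases with each of them, whereas the longest run shared among miR-669n, miR-466j and miR-466k was 8 bases. These strands were 20 to 23 bases long with a GC content of 23.8 to 43.5%. The mature strand of miR-669n, whose name gives no arm, occupies bases 4 to 23 of a hairpin of 54 bases, and so lies on its 5′ side. Of the 476 miRNAs on the array with a sequence, 8 (1.68%) contained CACACA and 9 (1.89%) contained GUGUGU on the mature strand. Each included 3 of the 6 strands shown, and the 30 miRNAs without a sequence are not covered by these shares. Each motif was found in both detected and undetected miRNAs: 4 of the 8 with CACACA and 3 of the 9 with GUGUGU were detected on at least 1 array. Over all 611 mouse miRNAs it was 162 (26.5%), and the share over the 476 was not counted.

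miRNA levels were measured on 8 one-colour Agilent arrays of 1 slide. Each WT RNA sample was hybridized on 2 arrays and each MT and control sample on 1. Signal is the background-subtracted brightness that the authors deposited, in the arbitrary units of the scanner. Detection of a miRNA on an array required that at least 1 of its probes had over 50% of its spots marked by the software as well above background. The arrays detected 104 to 150 of the 611 mouse miRNAs. The first array of WT replicate 1 and the array of MT replicate 1, both in column 1 of the slide, had the widest background, with an SD of negative control spots of 6.63 and 5.61 units against 2.91 to 3.76 on the other 6. On these arrays the dimmest mouse spot marked as well above background had a signal of 37.4 and 32.0 units, against 15.0 to 22.3 on the others, so that a miRNA of equal signal could be detected on one array and not on another. The markers of mesenchymal fibroblasts were present, with 11 of 13 detected, and 0 of 28 markers of liver, neurons, muscle, blood, epithelium and pluripotent cells were detected, although Feature Extraction, the image analysis software, itself called 2 of the 28. The markers do not include miR-290-3p of the miR-290 cluster, which was detected on 1 array.

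Most of the 36 miRNAs were not seen in these cells in any group. Only 4 (11.1%) were detected on at least 1 array, against 158 of the 575 other mouse miRNAs (27.5%), and 1 (2.78%) was detected on all 8 arrays, against 102 others (17.7%). The 4 were miR-669f-3p on all 8 arrays, miR-669n on 6, miR-466f-3p on 3 and miR-467f on 2. By subfamily, 0 of 3 miR-297, 1 of 12 miR-466, 1 of 10 miR-467 and 2 of 11 miR-669 miRNAs were detected. The call that Feature Extraction itself makes for a whole miRNA was more permissive and gave 9 of the 36 on at least 1 array, against 191 of the 575 others. In bulk RNA, fewer cells with a miRNA and less of it per cell cannot be told apart.

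By arm, none of the 15 named as 5p was detected, against 80 of 241 other 5p miRNAs (33.2%). Feature Extraction itself called 2 of the 15, against 91 of the 241. Of the 12 named as 3p, 2 were detected (16.7%), against 63 of 250 others (25.2%). Of the 9 with no arm in the name, 2 were detected (22.2%), against 15 of 84 others (17.9%). Among these 2, miR-669n lies on the 5′ side of its hairpin, so counts by name do not cover every 5′ strand. Within miR-669, the 2 detected were 1 of 3 named as 3p and 1 of 4 with no arm, beside 0 of 4 named as 5p. The same arrays held both arms of miR-466f, of which miR-466f-3p was detected on 3 arrays and miR-466f-5p on 0, with signals of the latter between -0.25 and 4.20 units.

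By position, the 26 miRNAs with genes only within Sfmbt2 included 1 that was detected (3.85%), miR-669f-3p. Of the 3 with genes within Sfmbt2 and elsewhere 1 was detected, and of the 6 with genes only elsewhere 2 were detected (33.3%). Of the 4 detected miRNAs, 2 thus had no gene in the Sfmbt2 block. Within the block, the hairpin of miR-669f was the 3rd of the 72 in the order of the annotation, and the hairpins of miR-466f were the 2nd, 7th and 10th. The next hairpins after that of miR-669f gave miR-669e-5p (4th) and miR-669b-5p (5th), which were not detected on any array, with signals of -0.52 to 5.20 and -0.33 to 7.66 units. Also undetected were miR-466b-3p and miR-467a-5p, whose hairpins repeat in the middle of the block. miR-466b-3p, matched to 8 hairpins, had signals of 3.34 to 8.56 units, and miR-467a-5p, matched to 10 hairpins, had signals of -0.40 to 3.62 units. Of the 72 hairpins, 43 had a miRNA among those measured here, and the others were not assessed. An array entry for miR-669a from an older database version, left out by the naming rule, was detected on 1 array. That entry was not placed in this order.

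**Figure D1:**
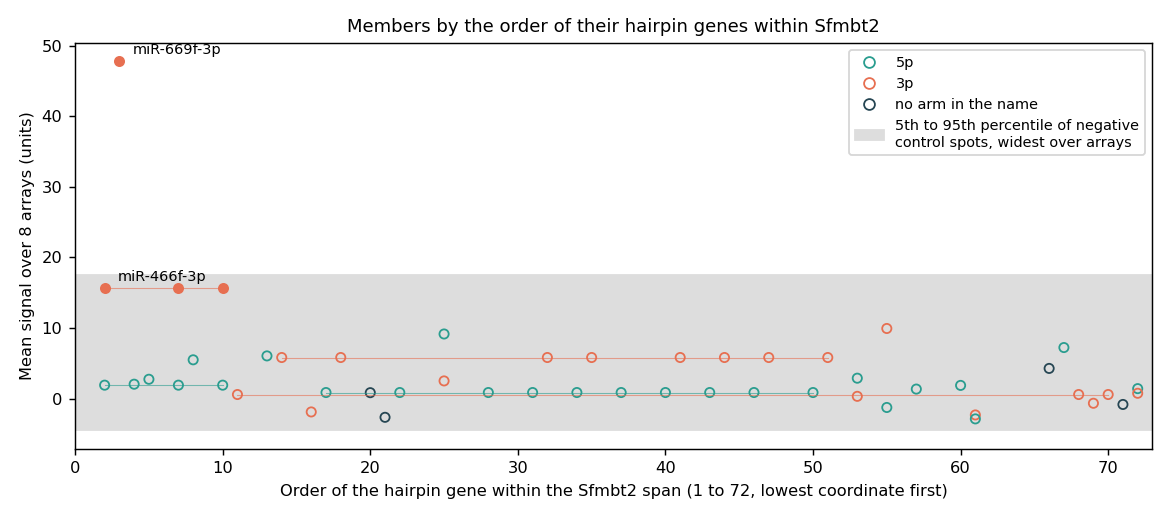
Mean signal over 8 arrays (vertical, scanner units) of the 29 miRNAs with a hairpin gene within Sfmbt2, by the order of the gene among the 72 (horizontal); a miRNA with several genes is drawn at each, joined by a line, filled where it was detected on at least 1 array. The detected miR-669f-3p and miR-466f-3p sit among the first 10 hairpins, and the grey band gives the widest range of negative control spots (5th to 95th percentile); signals of different probes cannot be set against each other as amounts of RNA.

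Low detection was also found in other large mouse clusters. In the imprinted Dlk1-Dio3 cluster, which is active in many embryonic tissues, 2 of 73 miRNAs were detected (2.74%), in the miR-290 cluster of pluripotent cells 1 of 14 (7.14%), and in a cluster of the X chromosome 0 of 26. Detection also went with the number of probes, since miRNAs with 3 or 4 probes were detected less often among the others (28 of 263) than miRNAs with 1 or 2 probes (130 of 312). Among the 36, the same counts were 1 of 14 and 3 of 22. The part of the number of probes in the low detection of the 36 was not tested.

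**Figure D2:**
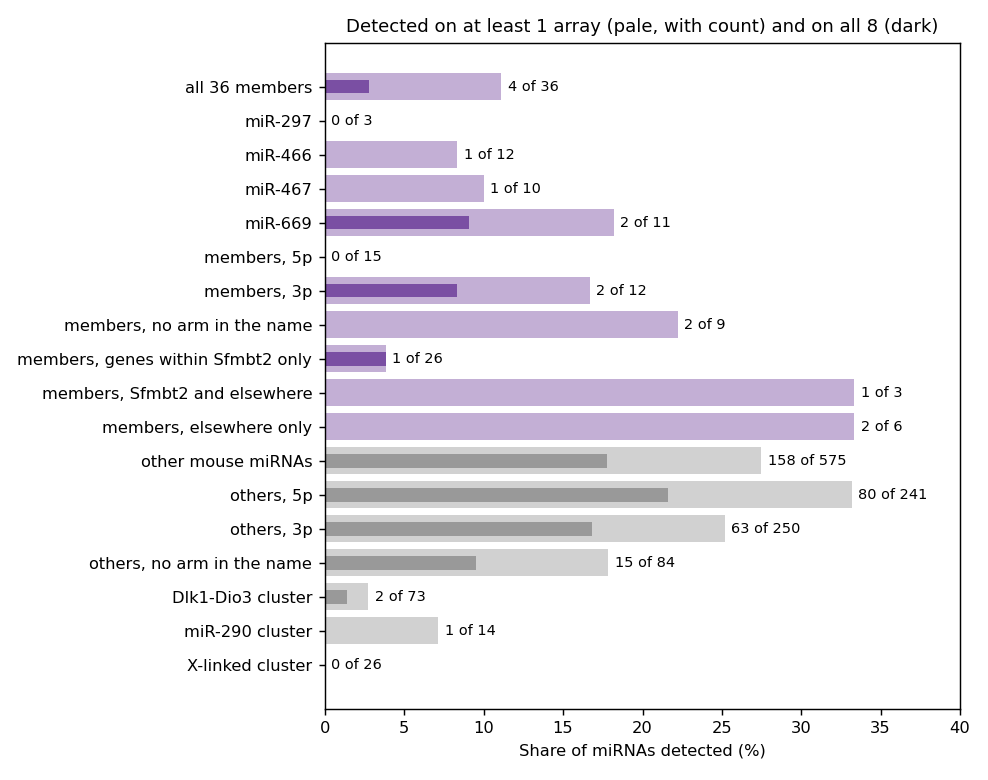
Share of miRNAs detected (horizontal, %) on at least 1 array (pale bar, with the count beside it) and on all 8 arrays (dark bar), for the 36 miRNAs by subfamily, arm and position of their genes (purple) and for other mouse miRNAs and clusters (grey). The 36 stood at 11.1% on at least 1 array and the 575 others at 27.5%.

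Most of the 32 miRNAs that were not detected lay within the range of the negative control spots. Their median signal was between 0.20 and 2.41 units on the 8 arrays, and the median of the negative control spots was between 2.92 and 4.32 units. On each array 0 to 3 of the 32 exceeded the 95th percentile of negative control spots. Those with the highest mean signal were miR-466i-3p (11.6 units), miR-467d-3p (9.94 units) and miR-467b-5p (9.16 units). miR-466i-3p ranged from 8.59 to 15.3 units over the 8 arrays, and its 3 groups overlapped. miR-467d-3p was between 7.64 and 9.60 units on the 4 WT arrays, at 9.97 and 11.7 units in the MT replicates and at 11.4 and 12.1 units in the control replicates, so that the WT arrays lay below the other arrays before scaling. After the scaling described below that order was lost, as control replicate 1, at 7.57 scaled units, was below all 4 WT arrays (8.81 to 9.40). miR-467b-5p was at 7.52 and 6.28 units in the MT replicates, between 7.21 and 10.8 units on the WT arrays and at 15.9 and 8.91 units in the control replicates, so that the MT values were below the control values before scaling. After scaling the groups overlapped, since MT replicate 1, at 8.82 scaled units, was above control replicate 2, at 7.63. These 3 miRNAs did not meet the detection rule on any array, although Feature Extraction called them on 3, 2 and 1 arrays, and their differences were not tested. The 2 high values among the undetected belonged to single probes on the array of MT replicate 1. There miR-297b-5p had a signal of 31.9 units with 2 of 4 spots marked and miR-467b-3p had 30.3 units with 2 of 5 spots marked, and within these probes the spots ran from -6.44 to 66.7 and from -9.46 to 88.1 units.

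**Figure D3:**
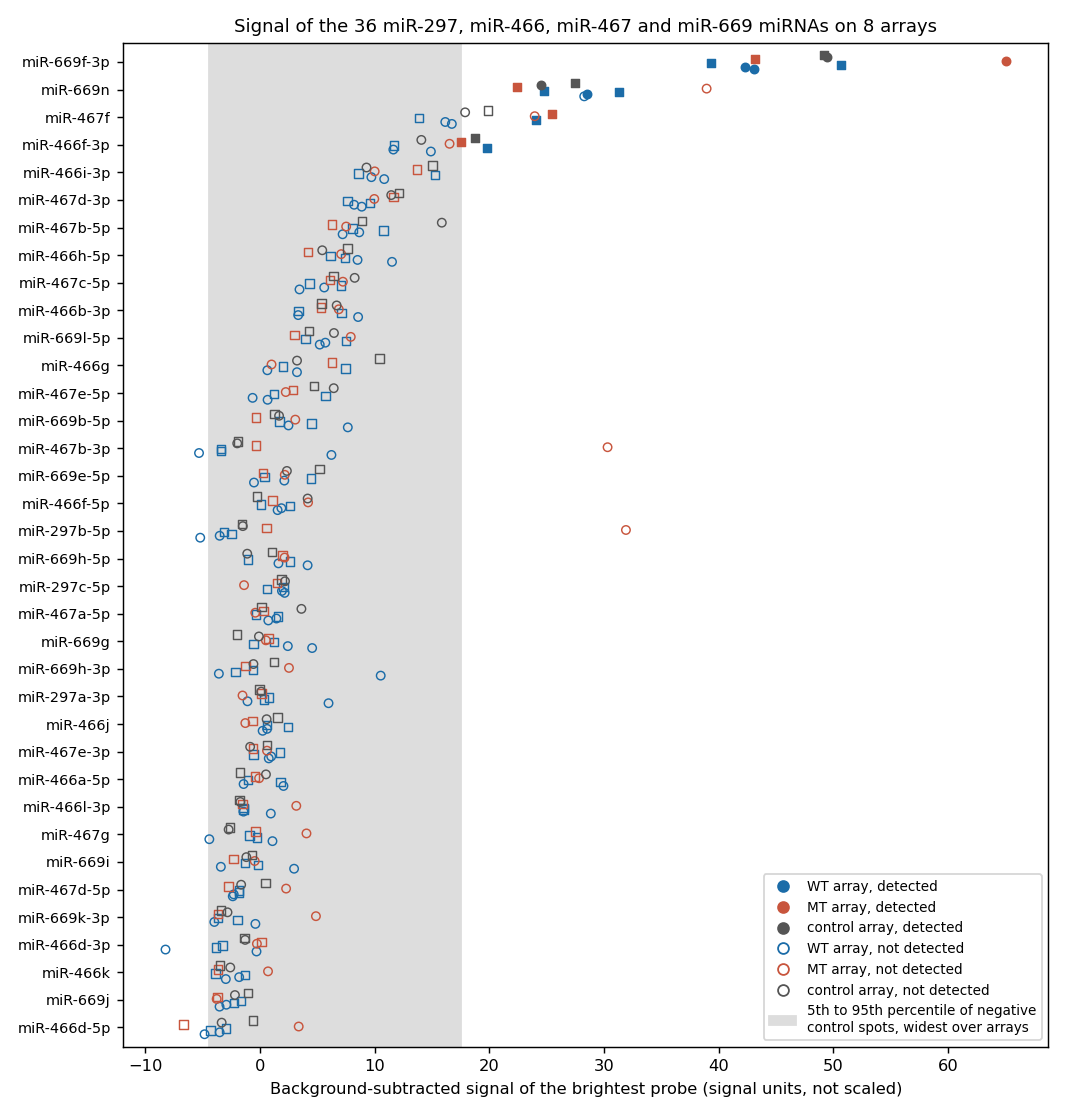
Background-subtracted signal (horizontal, scanner units, not scaled) of the brightest probe of each of the 36 miRNAs on the 8 arrays, in order of mean signal; circles are replicate 1 and squares replicate 2, and filled symbols mark arrays on which the miRNA was detected. Most miRNAs fall within the grey band of negative control spots, and miR-669f-3p lies outside it on all 8 arrays, between 39.4 and 65.1 units.

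The number of these miRNAs detected did not separate the groups. The 4 WT arrays detected 1, 2, 4 and 2 of the 36, the 2 MT arrays 1 and 4, and the 2 control arrays 2 and 3. The counts of the MT and WT arrays covered the same range from 1 to 4, and both counts of the control arrays lay within it. The arrays with 1 were those with the widest background, and they also detected the fewest other miRNAs, 103 and 105 of 575 against 115 to 148 on the other arrays.

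miR-669f-3p was the one miRNA from within Sfmbt2 that was detected throughout. Its signal was 43.1 and 42.3 units on the arrays of WT replicate 1 and 50.7 and 39.4 units on those of WT replicate 2. It was 65.1 and 43.1 units in the MT replicates and 49.5 and 49.2 units in the control replicates. Before scaling, MT replicate 1 stood above all other arrays, whereas MT replicate 2 lay below both control arrays. The second probe of miR-669f-3p was dimmer and gave 21.6 and 16.7 units in the MT replicates and 19.4 and 19.8 units in the control replicates, also with 1 MT value above and 1 below. At 37.4 units, the mark that the array with the widest background required, miR-669f-3p still exceeded the bar on every array.

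To compare the groups, each array was divided by its 75th percentile over 174 probes, those that every array detected, and log2 was taken. The scaling multiplied the MT arrays by 1.17 and 1.20 and the control arrays by 0.661 and 0.856. On this scale miR-669f-3p reached 5.98 ± 0.40 in the MT group, 5.53 ± 0.0065 in the WT group and 5.21 ± 0.26 with no protein (mean ± SD, n = 2 each). The MT samples were at 6.25 and 5.70 and the control samples at 5.03 and 5.40, and both WT samples, at 5.53, lay between them. The share of all tested miRNAs with such an order was not counted, so it is not a trait of miR-669f-3p. The 2 arrays of 1 WT sample differed by at most 0.03 on the log2 scale.

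miR-669n, with its gene on chromosome 3, was the second miRNA bright enough to be tested. Its signal was 28.3 and 28.5 units on the arrays of WT replicate 1, 31.3 and 24.8 units on those of WT replicate 2, 38.9 and 22.4 units in the MT replicates and 24.5 and 27.5 units in the control replicates. MT replicate 1 was the highest array and MT replicate 2 the lowest. The first array of WT replicate 1 (28.3 units) and MT replicate 1 (38.9 units) were the arrays on which miR-669n was not detected, although both were brighter than control replicate 1, where it was. After scaling, miR-669n stood at 5.13 ± 0.54 in the MT group, 4.89 ± 0.06 in the WT group and 4.32 ± 0.34 with no protein on the log2 scale (mean ± SD, n = 2 each). Control replicate 1 was at the floor set for dim signals, although all of its spots for this probe were marked (100%). Multiplied by 0.661, its value came to 16.2 scaled units, under the floor of 16.9. Its second probe did not share the high value of MT replicate 1, with 19.9 and 17.7 units in the MT group, 22.8 and 21.6 units in the WT samples and 17.4 and 24.9 units in the control group.

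**Figure D4:**
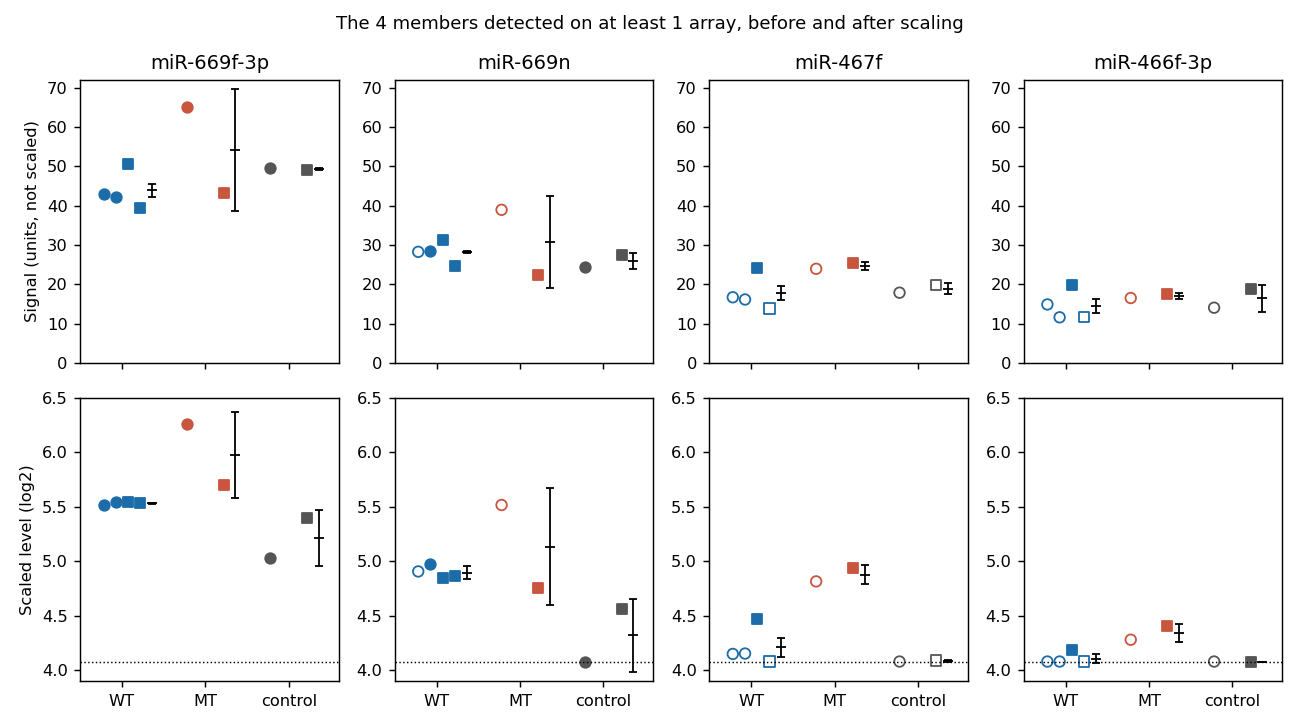
Signal before scaling (upper row, scanner units) and level after scaling (lower row, log2, dotted line at the floor of 4.08) of the 4 detected miRNAs on each array of the WT, MT and control groups; circles are replicate 1, squares replicate 2, filled where detected, and black bars give the mean ± SD over the 2 RNA samples. The MT arrays lie above the control arrays for miR-669f-3p after scaling but on both sides of them before it, whereas miR-467f is higher in both MT arrays than in both control arrays in either row.

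For the test a miRNA had to be detected on every array of some group, which 142 miRNAs were, among them 2 of the 36, miR-669f-3p and miR-669n. In WT against control, 0 of the 2 passed an adjusted p of 0.05 in limma, as did 0 of all 142 miRNAs (0%). At an unadjusted p under 0.05 the counts were 0 of the 2 and 40 of the 142 (28.2%). The difference of miR-669f-3p, WT minus control, was 0.32 (log2, SE 0.23, limma adjusted p = 0.355) and that of miR-669n 0.58 (SE 0.28, limma adjusted p = 0.210). The direction for miR-669f-3p turned with other scalings, to -0.18 with none, -0.042 with the percentile over all mouse probes and -0.014 with total gene signal, and with either control sample left out it was between 0.13 (replicate 1 left out) and 0.50 (replicate 2 left out). The median difference of the 2 was 0.45, beside 0.11 over all 142. With normexp background correction 22 of the 142 passed, and again 0 of the 2.

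In MT against control, 0 of the 2 and 0 of all 142 (0%) passed the adjusted threshold in limma. At an unadjusted p under 0.05 the counts were 2 of the 2 and 56 of the 142 (39.4%), of which 38 were higher in the MT group (26.8%). That fit takes its spread from all 3 groups, the WT samples included. With only MT and control in the fit, the limma unadjusted p was 0.032 for miR-669f-3p and 0.054 for miR-669n, and 51 of the 142 were under 0.05. miR-669f-3p was higher in the MT group by 0.76 (log2, SE 0.23, 95% interval 0.22 to 1.30, limma adjusted p = 0.0663), and miR-669n by 0.82 (SE 0.28, 95% interval 0.15 to 1.48, limma adjusted p = 0.0890). The median difference of the 2 was 0.79, beside 0.13 over all 142, and neither reached 2-fold, which 1 of the 142 did (0.704%). With normexp background correction, a setting in which 40 of the 142 passed, miR-669f-3p passed at 0.54 (limma adjusted p = 0.0159). Without MT replicate 1, the array with the wide background, the differences were 0.48 for miR-669f-3p and 0.43 for miR-669n. Without MT replicate 2 they were 1.04 and 1.20. Each of these fits leaves 1 MT sample, whose spread is taken from the other groups, so only the differences are given. The sample left in the second fit is the array with the wide background, on which miR-669n was not detected (44.4% of spots marked).

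In WT against MT, 0 of the 2 and 0 of all 142 (0%) passed, and no miRNA of the 142 had an unadjusted p under 0.05 in limma. miR-669f-3p was lower in the WT group than in the MT group by -0.45 (log2, SE 0.23, 95% interval -0.99 to 0.10, limma adjusted p = 0.99) and miR-669n by -0.24 (SE 0.28, 95% interval -0.90 to 0.43, limma adjusted p = 0.99). The median difference was -0.34, beside -0.04 over all 142. The comparisons with control share the control samples, and the comparisons with MT share the MT samples.

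How large the difference from control appeared depended on how the arrays were brought to 1 scale. With no scaling at all, the median of the 142 was 0.50 lower in the MT group than in the control group on the log2 scale (-0.50), and miR-669f-3p and miR-669n were 0.10 and 0.19 higher. Relative to the median of all tested miRNAs, the difference of miR-669f-3p between MT and control was 0.63 with the scaling above, 0.60 with none, 0.56 with the percentile taken over all mouse probes, 0.61 with quantile normalization, 0.64 with the total gene signal of Feature Extraction and 0.37 with normexp. That of miR-669n was 0.68, 0.69, 0.64, 0.58, 1.18 and 0.14 in the same order. A factor common to all miRNAs of an array largely cancels in a difference taken relative to the median. The values with the scaling above, with none and with all mouse probes were therefore bound to lie close, and their closeness tests nothing. With quantile normalization, total gene signal and normexp, miR-669f-3p ranged from 0.37 to 0.64 and miR-669n from 0.14 to 1.18. In the scaling above, the difference of miR-669f-3p stood at the 93.0 percentile of the 142 differences and that of miR-669n at the 96.5 percentile. When the tested miRNAs were ordered by mean level over all samples, the 36 lowest, which held miR-669n, had a median difference of 0.15 between MT and control, and the next 35, which held miR-669f-3p, one of 0.14.

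**Figure D5:**
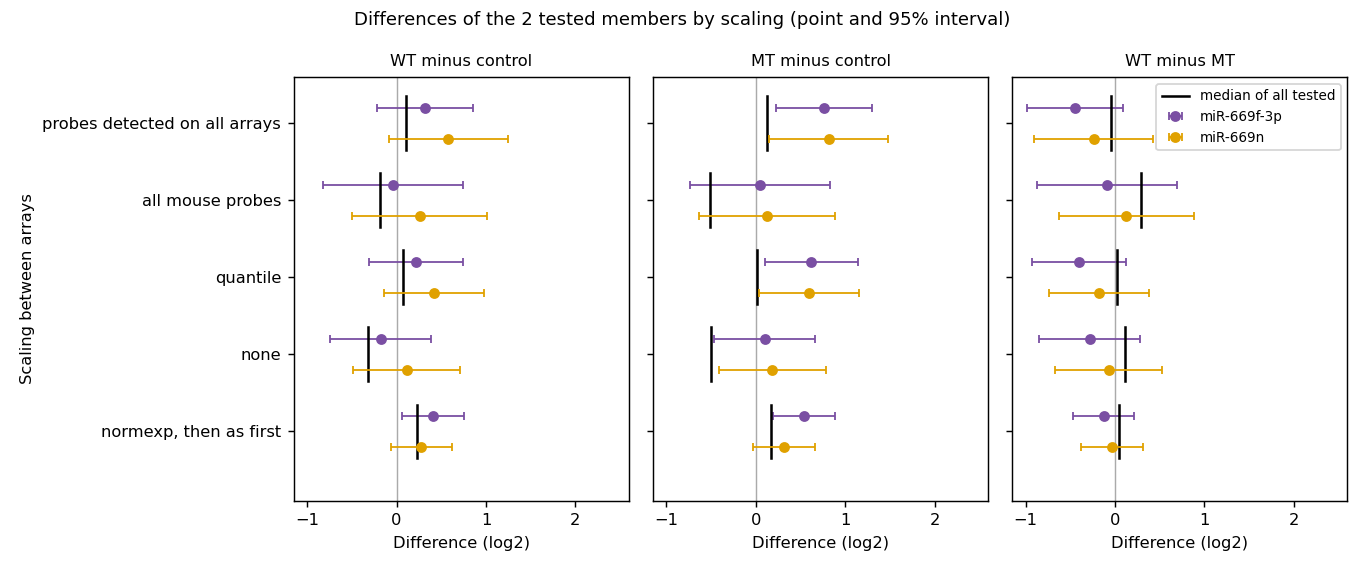
Differences between groups (horizontal, log2, point with 95% interval from limma) of miR-669f-3p and miR-669n under 5 ways of bringing the arrays to 1 scale (vertical), with a black line at the median difference of all tested miRNAs. In MT minus control both points move from 0.76 and 0.82 to 0.10 and 0.19 when no scaling is made, and the line at the median moves with them, from 0.13 to -0.50.

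The place of the arrays on the slide went with the groups. All 4 WT arrays lay in row 1 of the slide and all MT and control arrays in row 2. Differences of WT from either group therefore cannot be told apart from differences between rows. The MT arrays lay in columns 1 and 2 and the control arrays in columns 3 and 4, with a WT sample on each side. Within columns 1 and 2, WT replicate 1 differed from the MT mean of miR-669f-3p by -0.45 on the log2 scale, and within columns 3 and 4, WT replicate 2 differed from the control mean by 0.32. For miR-669n these values were -0.20 and 0.54. When the model was given a term for these sides, the differences between MT and control were 0.77 (SE 0.44) and 0.73 (SE 0.56), both with a limma adjusted p of 0.945.

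miR-467f and miR-466f-3p, at the edge of detection, did not enter the test. The signal of miR-467f was 16.7 and 16.2 units on the arrays of WT replicate 1, 24.1 and 13.9 units on those of WT replicate 2, 24.0 and 25.5 units in the MT replicates and 17.9 and 19.9 units in the control replicates. Both MT values were above both control values and above both WT samples (16.4 and 19.0 units as means of their arrays) already before scaling, although 1 single WT array reached 24.1 units. How many of all mouse miRNAs had such an order was not counted. The second probe of miR-467f was also highest in both MT samples, with 24.8 and 14.0 units. It gave 7.72 and 10.3 units in the WT samples and 9.70 and 8.76 units in the control group. However, at most 40% of the spots of this second probe were marked on any array, short of the detection rule. Its value of 24.8 units came from MT replicate 1, an array with a wide background. Neither probe of miR-467f met the detection rule there. miR-467f was detected on 1 of 4 WT arrays, 1 of 2 MT arrays and no control array. The control signals exceeded the 95th percentile of negative control spots (9.03 and 10.0 units), and Feature Extraction called miR-467f on 7 of the 8 arrays, but at most 40% of its spots were marked on a control array, short of the detection rule. For a scaled ratio, each control array was set to its dimmest detected probe or to its miR-467f signal, whichever was higher. On control replicate 2 this was the miR-467f signal. The ratio of MT to control was then 2.04. This is not a lower bound, since the MT mean includes MT replicate 1, where miR-467f was not detected. In the fit with no filter, with most miRNAs at the floor, miR-467f was higher in MT than in control by 0.79. That difference (log2, SE 0.070) had a limma adjusted p of 0.277 and an unadjusted p of 0.0014. Control replicate 1 of miR-467f was itself at the floor and control replicate 2 just above it, with a control SD of 0.0082. The floor thus holds down the spread behind this SE and p. The ratio between the unscaled means of 24.7 and 18.9 units was 1.31. Before scaling the WT mean was 0.938 of the control mean.

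miR-466f-3p showed no such order before scaling. Its signal was 14.9 and 11.6 units on the arrays of WT replicate 1, 19.8 and 11.7 units on those of WT replicate 2, 16.5 and 17.6 units in the MT replicates and 14.1 and 18.8 units in the control replicates. The MT values lay between the 2 control values. After scaling, both MT values, at 19.4 and 21.1 scaled units, were above the control values of 9.30 and 16.1 and above all 4 WT arrays (12.8 to 18.2). The share of all miRNAs with this order was not counted either. In the fit with no filter, where most miRNAs sit at the floor, its difference between MT and control was 0.26 (log2, limma adjusted p = 0.505, unadjusted 0.016). Both control samples of miR-466f-3p and its WT replicate 1 were at that floor (control SD 0), so the size and p of this difference rest on the floor. miR-466f-3p was detected on 1 array of each group, and only the brightest of its 4 probes was marked there.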

How the data were processed

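The authors deposited the Feature Extraction output of each array, whose intensity column is the background-subtracted, detrended brightness of each spot, and a series table that equals it to within 0.005 units and was not used further. The sources disagree on the software version (10.7.1.1 in the file header, 9.1 in the submitters' processing notes). Each array held 13715 spots, 20 for each of the 36 miRNAs, and none was saturated. Control and outlier spots were left out and spots averaged by probe. Signals were scaled as described, set to a floor of 4.08 (log2), and the brightest probe taken for each miRNA; the 2 arrays of a WT sample were averaged on the log2 scale. The 3 groups shared 1 fit in limma (version 3.58.1, under R 4.3.3), with moderated statistics from eBayes and Benjamini-Hochberg adjustment over 142 miRNAs at a threshold of 0.05. With 2 samples a group, the number of arrays limits the precision.

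Named by rule were the tested miRNAs, those detected on some arrays and the 3 brightest undetected; miR-669e-5p, miR-669b-5p, miR-466b-3p, miR-467a-5p, miR-297b-5p, miR-467b-3p and miR-466f-5p were named after their values were seen. The miRNAs, lists and tests were chosen with earlier results of these data known. Alternatives covered scaling, signal column, background correction, floor, filter, probes, outliers, technical arrays, samples, block and slide side. Array entries with an older-version suffix (3) fell outside the naming rule.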

Additional observations from a re-analysis of the deposited data

How the results depend on the processing

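The 36 miRNAs rest on 4 detected ones near background, and 2 samples a group leave intervals of over 1 log2 unit. In MT against control, 1 of them passed with normexp background correction, where 40 of all 142 passed. Also, 1 passed when only miRNAs detected on all 8 arrays were tested. In that list only miR-669f-3p remained, and 29 of all 103 passed. Fits without 1 sample leave a group of 1, whose spread is assumed to be that of the other groups, so their calls are not given. In the other comparisons no alternative gave a call. The median difference between WT and control was 0.11 with the percentile over all mouse probes, -0.90 with total gene signal (4 miRNAs tested), 0.00 with no filter (36 miRNAs, most at the floor) and -0.030 with no scaling. Between MT and control these were 0.088, -0.71, 0.00 and 0.15, with 0.43 under normexp and 0.46 to 1.12 on leaving out 1 sample (0.46 without MT replicate 1 and 1.12 without MT replicate 2). Between WT and MT it was 0.021 with all mouse probes, 0.00 with no filter and -0.67 to -0.20 on leaving out 1 sample (-0.67 without MT replicate 2, -0.20 without MT replicate 1). Leaving out control replicate 1 gave 0.13 for WT against control. With MT replicate 1 left out 4 miRNAs met the filter, and with control replicate 1 left out 3 did. Those medians are therefore not over the same 2 miRNAs. Signs turned for miR-669f-3p in WT against control (-0.042 with all mouse probes, -0.014 with total gene signal, -0.18 with no scaling) and for miR-669n in WT against MT (0.13 with all mouse probes, 0.18 without MT replicate 1, in a range of -0.62 to 0.18 on leaving out 1 sample). The cause was not tested. Of the alternatives, no scaling, the median of spots and the crosswise pairing were added once the data had been seen.

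Detection rose from 4 to 9 on at least 1 array and from 2 to 4 on all arrays of a group with the Feature Extraction call. Leaving out 1 sample gave 2 to 4 for the latter, 4 without MT replicate 1 and 3 without control replicate 1.

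The replicate numbers did not pair the samples: deviations of same-numbered samples correlated at 0.02 (WT and MT), 0.39 (WT and control) and -0.46 (MT and control). With the replicate block, 0 of the 2 miRNAs passed in each comparison, and 41, 58 and 1 of the 142 had an unadjusted p under 0.05. With MT and control paired crosswise, a pairing that no label gives, 2 of the 2 and 58 of the 142 passed. That pairing was added once the data had been seen, and the correlation of -0.46 favours it in advance. Its calls are therefore not counted as a result. A slide block could not be fitted, as there was 1 slide.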

Other observations

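The array also held 3 entries of these families under an older database version, which the naming rule leaves out. miR-669a in that version was detected on 1 array, with signals of 11.9 to 19.8 units over the 8 arrays and up to 18.5 units in the control group. miR-466c-5p in that version was detected on 0 arrays, with signals of 10.4 to 18.2 units, and miR-466b-5p on 0 arrays, with -1.92 to 0.61 units.

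Among the miRNAs outside these families that carry the same repeats, miR-574-5p, which contains GUGUGU, was detected on 8 arrays (mean signal 143 units), as was miR-1187 (43.6 units). miR-342-3p and miR-34c-3p, which contain CACACA, were detected on 8 arrays (47.1 and 77.2 units) and miR-574-3p on 5 (20.9 units). Outside these families, miR-377-3p and miR-713 with CACACA were detected on no array. The same held for miR-206-3p, miR-294-3p, miR-539-5p and miR-672-5p with GUGUGU. Carrying either repeat went with detection in some miRNAs and not in others.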
